A study of Homo sapiens with 9 samples.

Results

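The genes described here encode collagen chains. They are all rows of the deposited expression table whose symbol is COL, a type number, A and a chain number. The table held 38 such genes among 15570, and all 38 matched a RefSeq gene by NCBI gene ID. The chains of COL20A1, COL22A1, COL23A1, COL6A5, COL6A6 and COL9A1 were not analysed here. The cells were hCMEC/D3, an immortalised line from human brain microvascular endothelium that stands as a model of the blood-brain barrier and holds no pericytes or glia. Reoxygenated cells (OGD/R, n = 3 libraries) were deprived of oxygen and glucose for 4 h (no glucose in the medium, a gas of 95% N2 with 5% CO2) and were then kept for 16 h in normal medium at 21% O2 with 5% CO2. Deprived cells (OGD, n = 3) had the 4 h of oxygen-glucose deprivation alone, and control cells (n = 3) had neither. The labels do not say whether libraries of a group came from separate cultures, so the p-values reflect the spread between these samples alone, and that spread may be technical.

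Collagens are secreted as trimers of chains wound into a triple helix. Fibrillar collagens form the fibres of connective tissue, type IV collagen forms the sheet of the basement membrane on which endothelium rests, and type VI collagen forms beaded filaments beside it. FACIT collagens sit on the surface of fibres, multiplexins such as type XVIII anchor in basement membranes, and type VIII forms short-chain networks that vascular endothelium is known to make. Each chain is hydroxylated on proline and lysine in the endoplasmic reticulum by enzymes that use molecular oxygen, folded with the help of dedicated chaperones, trimmed outside the cell and cross-linked.

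RNA abundance was given as FPKM (fragments for each kilobase of transcript, relative to all mapped fragments), a level per transcript length that allows comparison between genes. Summed FPKM per library lay between 442696 and 605818, and read depth is unknown, so that no counting interval is given. Defining endothelial markers were weak in every library. VWF did not exceed 0.0881 FPKM and CLDN5 did not exceed 0.101 FPKM, while ENG reached 37.96 FPKM, and 5 of the 15 endothelial markers in the table passed the expression filter. Summed endothelial markers were 48.0 to 53.3 FPKM in OGD/R libraries, 13.6 to 16.2 in OGD libraries and 27.5 to 32.9 in control libraries. Of these sums ENG alone gave 30.3 to 37.96 FPKM in OGD/R, 6.11 to 7.11 in OGD and 11.1 to 17.0 in control libraries. CDH5 and ROBO4 were also highest in OGD/R. PECAM1 and EGFL7 overlapped between OGD/R and control, with EGFL7 at 6.71 to 11.6 and 10.04 to 14.8 FPKM. The fibroblast markers PDGFRA and DCN did not exceed 0.0118 and 0.186 FPKM. Of 9 fibroblast markers in the table, THY1 and LUM were the 2 that passed the filter, and the list summed to 43.3 to 46.5 FPKM in OGD/R, 28.0 to 29.4 in OGD and 37.9 to 44.0 in control libraries. The 11 pericyte and smooth muscle markers, 7 of which passed, summed to 153 to 158 FPKM in OGD/R, 183 to 191 in OGD and 65.2 to 83.0 in control libraries. TAGLN alone gave 120 to 125, 170 to 178 and 47.7 to 60.5 FPKM in the same order. The other markers that passed did not follow this order. PDGFRB, CSPG4, ACTA2, CNN1 and NOTCH3 were lowest in OGD libraries, and RGS5 overlapped between groups. MYH11 did not exceed 0.0574 FPKM. Summed epithelial markers (KRT8 and KRT18 were the 2 of 7 that passed) were 238 to 257, 130 to 139 and 166 to 201 FPKM in OGD/R, OGD and control libraries, and the list for astrocytes, neurons and leukocytes (1 of 9 passed) did not exceed 3.24 FPKM. What these marker levels contribute to the collagen values was not tested. In RNA from bulk cultures, fewer cells of a type and less RNA per cell cannot be told apart.

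Sequences before 3 sets of start sites are shown. The first belongs to the head-to-head pair COL4A1 and COL4A2, whose FPKM ratio was highest in OGD. The others belong to COL5A1, with one of the largest changes of a fibrillar chain, and COL6A2, the most abundant chain. For COL1A1, COL1A2, COL6A1 and COL8A1 none is shown, because the promoter set used had no entry for them. The sequences shown are RefSeq sequences of GRCh38.p14 on the plus strand, 5′ to 3′. Capitals mark the letters CCAAT (known from CCAAT boxes), the letters GGGCGG (from GC boxes) and the letters TATAAA (from TATA boxes). The first is the whole interval of 126 bases between the start of COL4A1 on the minus strand and that of COL4A2 on the plus strand, chr13:110307158-110307283. The second is the 150 bases before COL5A1, chr9:134641653-134641802, and the third the 150 bases before COL6A2, chr21:46097962-46098111, both on the gene's own strand.
COL4A1 to COL4A2: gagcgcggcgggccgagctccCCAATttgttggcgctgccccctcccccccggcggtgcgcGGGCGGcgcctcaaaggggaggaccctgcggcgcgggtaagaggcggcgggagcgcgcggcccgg
COL5A1: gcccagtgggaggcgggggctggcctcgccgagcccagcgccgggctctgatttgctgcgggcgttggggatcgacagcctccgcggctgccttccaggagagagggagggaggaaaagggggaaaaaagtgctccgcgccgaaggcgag
COL6A2: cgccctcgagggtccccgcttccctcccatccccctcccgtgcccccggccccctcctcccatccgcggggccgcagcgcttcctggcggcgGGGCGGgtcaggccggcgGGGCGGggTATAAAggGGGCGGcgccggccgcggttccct

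The COL4A1 to COL4A2 interval holds 1 CCAAT, 105 to 101 bases before the COL4A2 start and, on the other strand, 26 to 22 bases before the COL4A1 start, and 1 GGGCGG, 65 to 60 bases before the COL4A2 start. The 150 bases before COL6A2 hold 3 GGGCGG and a TATAAA 32 to 27 bases before the start. None of these letters occurs in the 150 bases before COL5A1, and the nearest GGGCGG lies 214 to 209 bases before its start. In the 250 bases before the start, searched on both strands, CCAAT occurred in 33% of 27305 RefSeq promoters and in 8 of 29 collagen chain promoters matched. The 29 leave out COL1A1, COL1A2, COL6A1 and COL8A1, which had no entry. GGGCGG occurred in 42.3% of all and in 16 of the 29, and TATAAA in 11.1% of all and in 4 of the 29. ACGTG, the core of the hypoxia response element, occurred in 18.7% of all promoters and in 4 of the 29, those of COL12A1, COL15A1, COL4A3 and COL5A1. A match describes letters in this window and is no evidence of a bound factor.

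Of the 38 genes, 18 were tested, those with 1 FPKM or more in 3 or more of the 9 libraries. Of these, 12 were at or above 1 FPKM in all 9 libraries, and 1 (COL16A1) reached 1 FPKM in a single group, OGD/R. COL27A1 and COL8A2 also passed only with their OGD/R libraries, since 1 and 2 control libraries and 0 OGD libraries reached 1 FPKM. For these chains the filter itself favours a higher value in OGD/R. COL6A2 was the most abundant chain in each of the 3 groups by mean FPKM, and COL6A1, COL8A1, COL4A1, COL4A2, COL1A1 and COL1A2 were within the first 10 in each group. The summed FPKM of all 38 was 348, 450 and 411 in OGD/R libraries, 137, 123 and 122 in OGD libraries and 251, 180 and 158 in control libraries. The 3 groups did not overlap in this sum, with OGD/R highest and OGD lowest. As a share of each library's summed FPKM, collagen chains were 0.0775%, 0.101% and 0.0929% in OGD/R, 0.0233%, 0.0203% and 0.0203% in OGD and 0.0510%, 0.0397% and 0.0293% in control libraries.

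**Figure D1:**
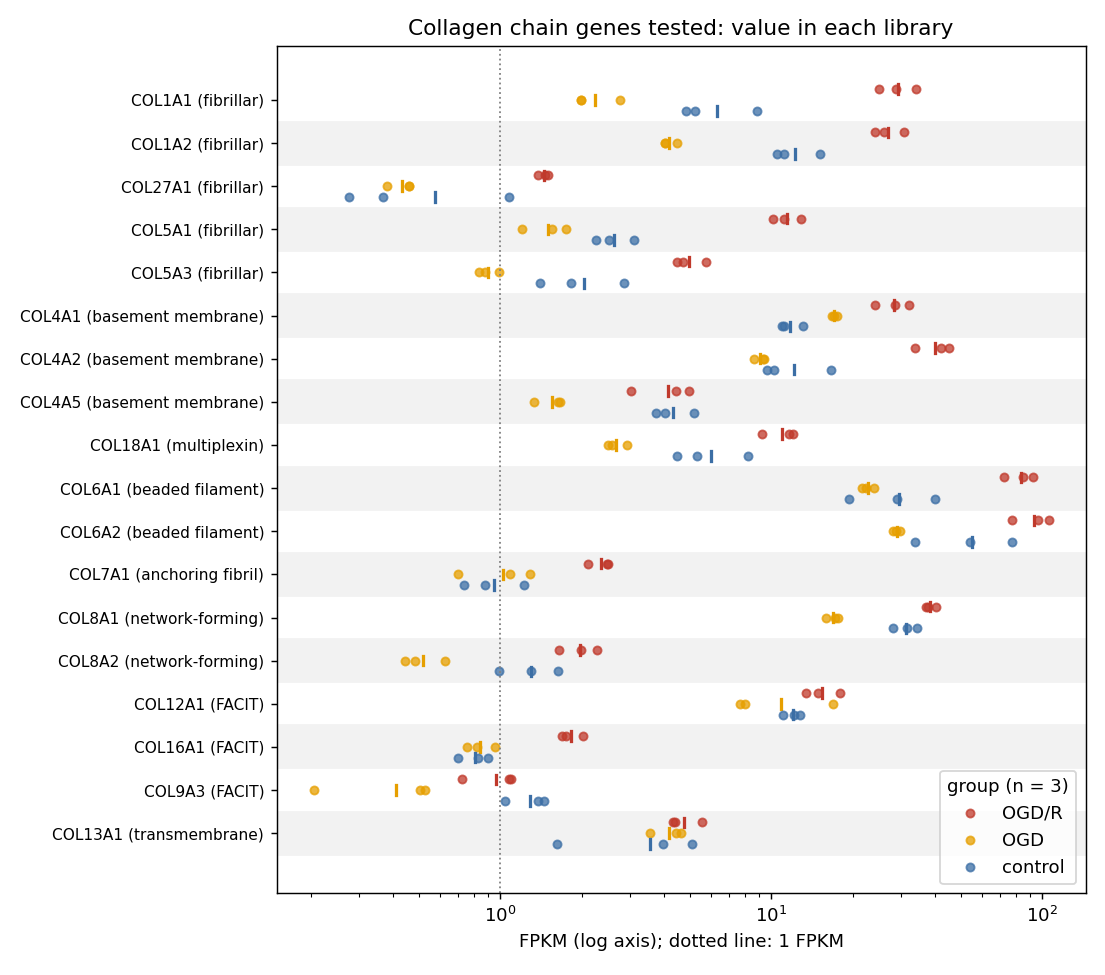
FPKM of the 18 tested collagen chain genes on a log axis, with 1 point per library, a tick at each group mean (n = 3) and rows ordered by structural class. OGD/R points overlap OGD points in the rows of COL12A1 and COL13A1 and lie to the right of them in the other rows. The share of all genes without such overlap was not computed, and 53.3% of all genes tested were called higher in this comparison.

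Without further scaling, 17 of the 18 tested chains were higher after reoxygenation than after deprivation, and 13 were higher than in control cells. With quantile normalization both counts were 13, beside 31.4% and 22.1% of all genes tested. With the length trend removed both were 11, beside 29.7% and 21.1%. After deprivation, 10 of the 18 were lower than in control cells, 55.6% of them beside 46.7% of all genes tested, and 8 were with median-of-ratios scaling and 6 with the length trend removed. Differences were tested with limma on log2(FPKM + 1), with Benjamini-Hochberg adjustment of p-values across the 10818 genes tested and a threshold of 0.05. In OGD against control, 1 of the 18 was called higher, where 11.3% of all genes tested were, and 10 were called lower, where 46.7% of all genes were (58% in either direction). The median log2 fold change of the 18 was -0.57, beside -0.31 over all genes tested. For OGD/R against OGD, 17 of 18 were called higher and 0 lower, where 53.3% and 17.4% of all genes were (70.7% in either direction), with a median of 1.07 beside 0.39. For OGD/R against control, 13 were called higher and 0 lower, where 24.7% and 16.5% of all genes were (41.2% in either direction), with a median of 0.80 beside 0.07. Both counts of higher chains in OGD/R hold COL16A1 and COL27A1, and the 17 also hold COL8A2. The filter favours these chains, which passed it only with their OGD/R libraries. Of the 12 chains at or above 1 FPKM everywhere, 1 was higher and 7 lower in OGD against control, 11 were higher in OGD/R against OGD and 9 were higher in OGD/R against control. The shares of all genes at that level were not computed, so the counts of these 12 have no background beside them. Any 2 of the 3 comparisons share 3 libraries, so their counts are not independent of each other. No chain was called lower in OGD/R than in OGD in any of the 20 alternative settings tried, and both counts of 0 were also 0 at an unadjusted limma p under 0.05.

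The level of the whole table moved between groups, and some calls depend on how libraries are scaled. With median-of-ratios scaling, 27.1% of all genes were higher and 22.4% lower in OGD against control, and the 18 chains gave 1 higher and 8 lower. With every library scaled to a common sum the shares were 5.65% and 65.4%, and the chains gave 0 higher and 12 lower. The shares in OGD/R against OGD were 31.7% and 35% with median-of-ratios scaling and 71.6% and 7.76% with a common sum, and 15 and 17 chains were higher. Against control, OGD/R gave shares of 21.6% and 23.6% or 31.1% and 8.62%, and 12 and 14 chains were higher. Collagen transcripts are long, with a median of 6328.5 bases among those tested against 3357 over all genes, and fold changes in these libraries moved with transcript length. The longest genes (from 7344 bases, 4 chains among them) had a median log2 fold change of 0.67 in OGD/R against OGD, and an equal number of the shortest genes had -0.51. With the length trend removed (10579 genes with a length), 3 chains were higher and 6 lower in OGD against control, where 20.7% and 22.4% of all genes were. This left 11 chains higher and 0 lower in OGD/R against OGD, beside 29.7% and 29.7% of all genes, and in OGD/R against control 11 were higher and 1 lower, beside 21.1% and 23.6%. The fold changes below are also given relative to the median of all genes where this matters, under the word relative.

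**Figure D2:**
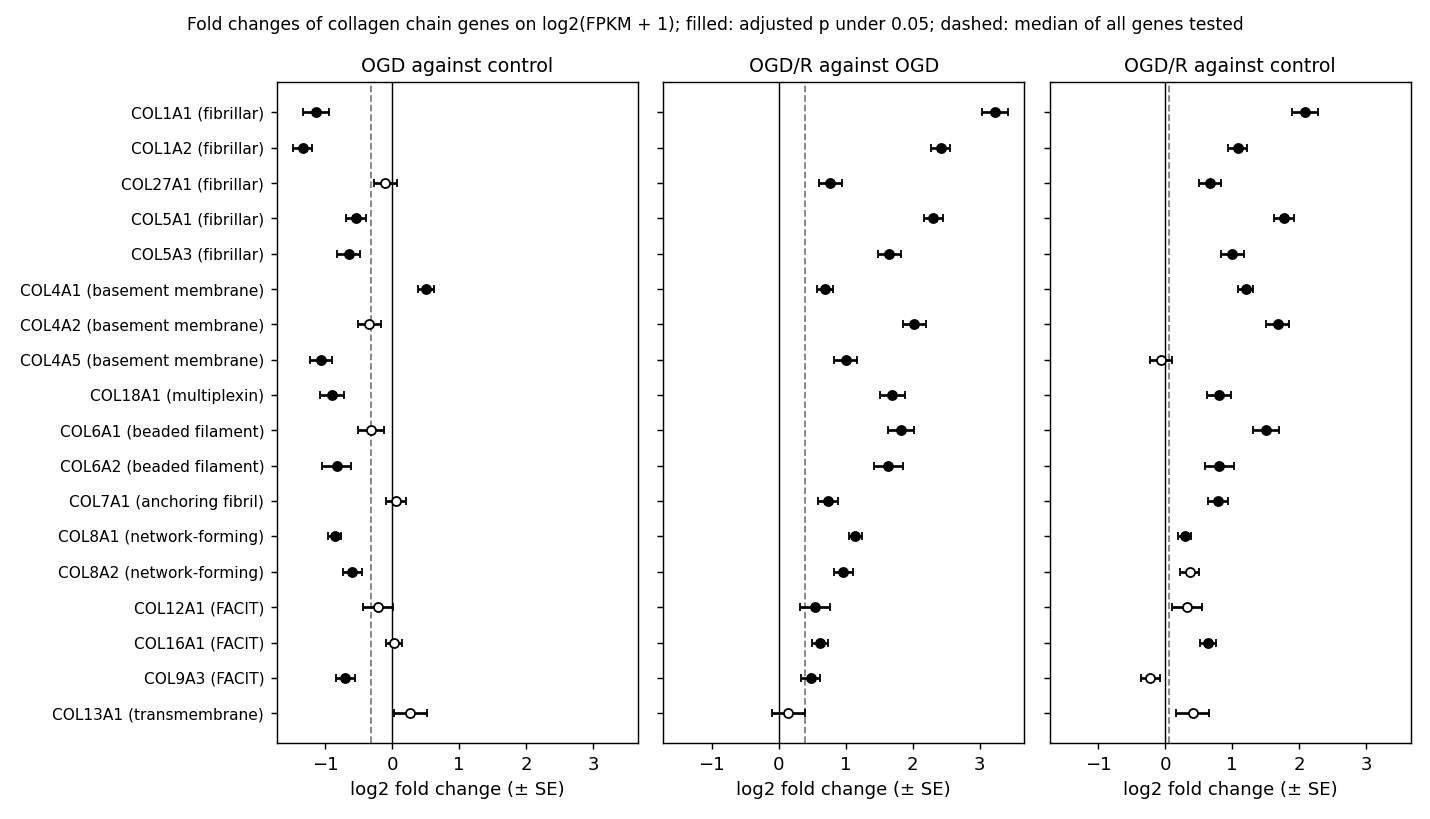
Log2 fold changes on the log2(FPKM + 1) scale with their standard errors for the 18 tested chains in the 3 comparisons. Filled points have an adjusted p under 0.05, the dashed line is the median of all 10818 genes, and COL4A1 is the 1 filled point right of zero in OGD against control.

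The 3 largest fold changes in OGD/R against OGD belonged to fibrillar chains, COL1A1, COL1A2 and COL5A1. The summed FPKM of the class was 65.7 to 85.2 in OGD/R libraries, 9.19 to 10.3 in OGD libraries and 21.0 to 32.2 in control libraries, so the groups did not overlap, and they made up 18.1% to 18.9%, 6.72% to 8.39% and 11.6% to 13.3% of all collagen FPKM in OGD/R, OGD and control libraries. Of the 5 fibrillar chains tested, 4 were lower in OGD than in control cells, all 5 were higher in OGD/R than in OGD and all 5 were higher in OGD/R than in control cells, where 46.7%, 53.3% and 24.7% of all genes tested were. The falls of COL5A1 and COL5A3 were lost with the length trend removed. COL1A1 (chr17:50184101-50201631) encodes the alpha 1 chain of type I collagen, the main collagen of skin and bone. It had 24.9, 34.2 and 28.9 FPKM in OGD/R libraries, against 1.99, 1.98 and 2.76 in OGD libraries and 8.82, 5.23 and 4.82 in control libraries. The 3 groups were fully separated. The log2 fold change was -1.14 (SE 0.19, relative -0.83, limma adjusted p = 0.000501) in OGD against control and 3.22 (SE 0.19, relative 2.83, adjusted p = 1.2e-07) in OGD/R against OGD, where the means differed 13.1-fold. Against control, COL1A1 in OGD/R gave 2.09 (SE 0.19, relative 2.02, adjusted p = 2.06e-05), a 4.66-fold difference of means.

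COL1A2 (chr7:94394895-94431227), the alpha 2 chain that pairs with it, had 24.1, 30.8 and 25.9 FPKM in OGD/R, against 4.05, 4.06 and 4.49 FPKM in OGD and 15.1, 10.46 and 11.2 in control libraries. These groups were also fully separated. COL1A2 fell by 1.33 on the log2(FPKM + 1) scale in OGD against control (SE 0.14, relative -1.02, limma adjusted p = 2.35e-05). That was the largest fall of the tested chains on this scale, while by the ratio of mean FPKM COL9A3 fell further (0.321 for COL9A3 and 0.343 for COL1A2). The log2 fold changes of COL1A2 were 2.42 in OGD/R against OGD (SE 0.14, adjusted p = 1.13e-07) and 1.09 in OGD/R against control (SE 0.14, adjusted p = 0.000138). COL5A1 (chr9:134641803-134844843), a chain of type V collagen that regulates fibre diameter, had 10.1, 12.9 and 11.2 FPKM in OGD/R, against 1.56, 1.74 and 1.20 in OGD and 3.11, 2.26 and 2.51 in control libraries, again without overlap. The log2 fold changes of COL5A1 were 2.31 in OGD/R against OGD (SE 0.15, limma adjusted p = 1.4e-07) and 1.77 in OGD/R against control (SE 0.15, adjusted p = 9.15e-06). Its decrease in OGD against control, -0.54 (SE 0.15, adjusted p = 0.00749), was lost with median-of-ratios scaling (adjusted p = 0.0594), with quantile normalization (-0.19, adjusted p = 0.204) and with the length trend removed (-0.13, adjusted p = 0.376).

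COL5A3, another type V chain, had 4.47, 4.70 and 5.76 FPKM in OGD/R, against 0.831, 0.873 and 0.990 in OGD and 2.86, 1.82 and 1.40 in control libraries. The groups did not overlap, and the log2 fold changes were 1.65 in OGD/R against OGD (limma adjusted p = 4.36e-06) and 1.005 in OGD/R against control (adjusted p = 0.000703). The difference of -0.65 in OGD against control (adjusted p = 0.0066) was lost with quantile normalization (adjusted p = 0.0681) and with the length trend removed (adjusted p = 0.236). COL27A1, a fibrillar chain known from cartilage, was low, with 1.37, 1.47 and 1.503 FPKM in OGD/R, 0.458, 0.380 and 0.458 in OGD and 1.07, 0.276 and 0.369 in control libraries. Control replicate 1 stood above the other controls, so OGD and control overlapped, while OGD/R lay above both. COL27A1 was higher in OGD/R than in OGD by 0.77 (limma adjusted p = 0.00123) and than in control by 0.67 (adjusted p = 0.00715), and both calls were lost with the length trend removed (adjusted p = 0.672 and 0.0605). COL3A1 and COL5A2, chains of types III and V, stayed below the filter, with at most 0.475 and 0.451 FPKM.

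Among the basement membrane chains, COL4A1 was called higher in OGD than in control and COL4A2 was not called. They encode the 2 chains of the ubiquitous type IV collagen trimer and are transcribed away from each other from the interval printed above. COL4A1 (chr13:110148963-110307157) had 24.1, 32.3 and 28.7 FPKM in OGD/R, against 17.0, 17.4 and 16.7 in OGD and 13.1, 10.96 and 11.2 in control libraries. OGD lay above control and OGD/R above both without overlap. It was the one tested chain called higher in OGD against control, by 0.51 (SE 0.12, relative 0.82, limma adjusted p = 0.00302), a call lost when libraries were scaled to a common sum (0.26, adjusted p = 0.105). COL4A1 was higher in OGD/R than in control by 1.20 (SE 0.12, limma adjusted p = 2.47e-05), and higher in OGD/R than in OGD by 0.69 (SE 0.12, relative 0.30, adjusted p = 0.000192), which came to 0.00 with the length trend removed (adjusted p = 0.978).

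COL4A2 (chr13:110307284-110513209) had 33.8, 45.1 and 42.1 FPKM in OGD/R, against 9.41, 9.28 and 8.63 in OGD and 16.6, 10.2 and 9.62 in control libraries. OGD/R stood far above both other groups, and OGD lay just below control. The log2 fold change was 2.02 in OGD/R against OGD (SE 0.17, relative 1.63, limma adjusted p = 1.17e-06) and 1.68 in OGD/R against control (SE 0.17, adjusted p = 3.59e-05). In OGD against control it was -0.34 (SE 0.17, relative -0.03, adjusted p = 0.107), and it passed without control replicate 3 (-0.48, adjusted p = 0.0333) and with a common sum (-0.62, adjusted p = 0.0110). COL4A5 (on chromosome X), a chain of a type IV trimer best known from kidney, had 3.02, 4.96 and 4.45 FPKM in OGD/R, against 1.66, 1.63 and 1.33 in OGD and 5.18, 4.03 and 3.76 in control libraries. It was lower in OGD than in control (log2 fold change -1.06, SE 0.17, limma adjusted p = 0.000299) and higher in OGD/R than in OGD by 0.999 (SE 0.17, adjusted p = 0.000175). OGD/R and control overlapped for COL4A5, and their difference of -0.06 did not pass the test (SE 0.17, limma adjusted p = 0.793; -0.33 and 0.0485 with the length trend removed). Its neighbour COL4A6 did not exceed 0.499 FPKM, and COL4A3 and COL4A4 did not exceed 0.0755 and 0.0653 FPKM.

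COL18A1 (chr21:45405165-45513720), a multiplexin whose C-terminal fragment is endostatin, had 9.23, 11.6 and 12.04 FPKM in OGD/R, against 2.59, 2.92 and 2.48 in OGD and 8.18, 4.47 and 5.29 in control libraries. The 3 groups were separate. It was lower in OGD than in control (log2 fold change -0.90, SE 0.18, limma adjusted p = 0.00134), higher in OGD/R than in OGD by 1.70 (SE 0.18, adjusted p = 5.27e-06) and higher in OGD/R than in control by 0.80 (SE 0.18, adjusted p = 0.00389). In the GENCODE annotation 16.4% of its exonic bases overlap SLC19A1 on the opposite strand, and since the use of strand is not given in the sources used here, reads of the pair may be shared. For the other chains such overlaps came to at most 4%, with an antisense transcript at COL5A3.

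Of the type VI chains, COL6A2 ranked 1 by mean FPKM in every group, and COL6A1 ranked 2 in OGD/R and in OGD and 3, after COL8A1, in control cells. The beaded filament class summed to 149 to 199 FPKM in OGD/R, 50.5 to 53.9 in OGD and 53.4 to 117 in control libraries. COL6A1 (chr21:45981770-46005048) had 71.9, 92.6 and 84.7 FPKM in OGD/R, against 23.9, 21.7 and 22.4 in OGD and 40.2, 29.1 and 19.3 in control libraries. OGD/R lay above both other groups, which overlapped through control replicate 3. It was higher in OGD/R than in OGD by 1.82 (SE 0.19, limma adjusted p = 5.68e-06) and higher in OGD/R than in control by 1.51 (SE 0.19, adjusted p = 0.00013). In OGD against control COL6A1 gave -0.31 (limma adjusted p = 0.183), and it passed without control replicate 3 (-0.58, adjusted p = 0.00378) and with a common sum (-0.59, adjusted p = 0.0272).

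COL6A2 (chr21:46098112-46132848), whose start site follows the third sequence above, had 77.3, 106 and 96.2 FPKM in OGD/R, against 29.9, 28.95 and 28.1 in OGD and 77.2, 54.1 and 33.9 in control libraries. The OGD libraries were nearly alike and the controls spread widely, with control replicate 1 just under the lowest OGD/R library. COL6A2 was lower in OGD than in control (log2 fold change -0.83, SE 0.22, limma adjusted p = 0.00671), a call lost with median-of-ratios scaling (adjusted p = 0.0765) and with the length trend removed (adjusted p = 0.0706). It was higher in OGD/R than in OGD by 1.64 (SE 0.22, adjusted p = 3.24e-05) and than in control by 0.81 (SE 0.22, adjusted p = 0.0111), the second of which was lost without OGD/R replicate 2 (0.71, adjusted p = 0.0566). COL6A3, the large chain of the classical type VI trimer, did not exceed 0.453 FPKM in any library.

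COL8A1 (chr3:99638594-99799217), the main type VIII chain here, had 37.2, 40.5 and 37.99 FPKM in OGD/R, against 17.5, 15.9 and 17.1 in OGD and 34.4, 28.2 and 31.7 in control libraries. Its OGD libraries lay well below both other groups, which were close to each other but did not overlap. COL8A1 was lower in OGD than in control (log2 fold change -0.86, SE 0.10, limma adjusted p = 3.33e-05) and higher in OGD/R than in OGD by 1.15 (SE 0.10, adjusted p = 9.92e-07). The difference of 0.29 in OGD/R against control (SE 0.10, adjusted p = 0.0286) was lost with median-of-ratios scaling (adjusted p = 0.0814), with the length trend removed (adjusted p = 0.747), with a replicate block (adjusted p = 0.0533), in a fit of these 2 groups alone (adjusted p = 0.0726), and without OGD/R replicate 2 or 3 or control replicate 2 (adjusted p = 0.0856, 0.0685 and 0.0827). COL8A2, the second type VIII chain, had 1.64, 1.98 and 2.28 FPKM in OGD/R, against 0.625, 0.482 and 0.446 in OGD and 1.63, 0.984 and 1.29 in control libraries. No group overlapped another, although the lowest OGD/R and the highest control library nearly met. COL8A2 was lower in OGD than in control (log2 fold change -0.59, limma adjusted p = 0.00398; 0.272 with the length trend removed) and higher in OGD/R than in OGD by 0.96 (adjusted p = 7.14e-05). COL8A2 gave 0.37 in OGD/R against control (limma adjusted p = 0.0546), and it passed without OGD/R replicate 1 (0.45, adjusted p = 0.0467), without control replicate 1 (0.47, adjusted p = 0.0206) or with a common sum (0.58, adjusted p = 0.0284).

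The remaining tested chains were of the FACIT, anchoring fibril and transmembrane classes. COL12A1, a FACIT chain of dense connective tissue, had 13.4, 17.9 and 14.8 FPKM in OGD/R, 16.9, 7.98 and 7.67 in OGD and 12.1, 11.03 and 12.8 in control libraries. OGD replicate 1 stood above the other OGD libraries and above every control, so OGD overlapped OGD/R and spanned the controls. In OGD against control COL12A1 gave -0.22 (SE 0.23, limma adjusted p = 0.425), and -0.55 without OGD replicate 1 (adjusted p = 0.00801). The call in OGD/R against OGD, 0.54 (SE 0.23, limma adjusted p = 0.0463), depended on the setting. It gave 0.09 with median-of-ratios scaling (adjusted p = 0.728) and 0.10 with quantile normalization (adjusted p = 0.701), turned to -0.12 with the length trend removed (adjusted p = 0.647), and also failed under a robust prior (adjusted p = 0.0557) or without the filter (adjusted p = 0.118). The adjusted p was 0.177 and 0.191 without OGD replicate 2 or 3, 0.165 and 0.0764 without OGD/R replicate 2 or 3, and 0.0555 without control replicate 1. OGD/R against control gave 0.33 (SE 0.23, adjusted p = 0.262).

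COL16A1, another FACIT chain, had 1.69, 1.74 and 2.02 FPKM in OGD/R, 0.816, 0.751 and 0.951 in OGD and 0.897, 0.829 and 0.698 in control libraries. OGD/R stood apart from the other groups, which overlapped. It gave 0.62 in OGD/R against OGD (SE 0.12, limma adjusted p = 0.000632), which was lost with quantile normalization (0.16, adjusted p = 0.199) and turned to -0.06 with the length trend removed (adjusted p = 0.637). COL16A1 gave 0.64 in OGD/R against control (limma adjusted p = 0.00143). It gave 0.03 in OGD against control (adjusted p = 0.868), and it passed with quantile normalization (0.29, adjusted p = 0.0420) and with the length trend removed (0.45, adjusted p = 0.00685). COL9A3, a chain of cartilage type IX collagen, had 0.721, 1.08 and 1.10 FPKM in OGD/R, 0.504, 0.529 and 0.204 in OGD and 1.37, 1.45 and 1.04 in control libraries. It was lower in OGD than in control (log2 fold change -0.70, limma adjusted p = 0.00173). COL9A3 gave 0.48 in OGD/R against OGD (limma adjusted p = 0.0106). That call was lost with median-of-ratios scaling (0.29, adjusted p = 0.0758), with quantile normalization (0.05, adjusted p = 0.771), with the length trend removed (0.20, adjusted p = 0.199) and without OGD replicate 3 (0.37, adjusted p = 0.0635). OGD/R and control overlapped for COL9A3 (-0.22, limma adjusted p = 0.246; -0.40 and 0.0405 with quantile normalization).

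COL7A1, the anchoring fibril chain that ties epithelium to stroma, had 2.102, 2.499 and 2.47 FPKM in OGD/R, 1.08, 0.700 and 1.29 in OGD and 1.22, 0.878 and 0.731 in control libraries. OGD/R lay above both other groups, which overlapped. COL7A1 was higher in OGD/R than in OGD by 0.74 (SE 0.15, limma adjusted p = 0.000774; 0.121 with quantile normalization and 0.743 with the length trend removed) and higher in OGD/R than in control by 0.79 (SE 0.15, adjusted p = 0.00139). In OGD against control it gave 0.06 (adjusted p = 0.761; 0.45 and 0.0146 with the length trend removed). COL13A1, a transmembrane collagen of cell adhesion sites, had 4.33, 4.39 and 5.55 FPKM in OGD/R, 4.62, 4.43 and 3.56 in OGD and 5.09, 1.62 and 3.97 in control libraries. The groups overlapped in all 3 comparisons, none of which passed the test (limma adjusted p = 0.361 for OGD and 0.198 for OGD/R, each against control, and 0.614 for OGD/R against OGD). Without control replicate 1, OGD/R against control gave 0.67 (adjusted p = 0.0384).

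The other 20 chains did not pass the filter. Of these, 9 never reached 0.1 FPKM: COL10A1, COL14A1, COL19A1, COL21A1, COL24A1, COL28A1, COL2A1, COL4A3 and COL4A4. The remaining 11 peaked between 0.1 and 0.858 FPKM: COL9A2 (0.858), COL15A1 (0.754), COL4A6 (0.499), COL3A1 (0.475), COL6A3 (0.453), COL5A2 (0.451), COL11A1 (0.408), COL11A2 (0.334), COL17A1 (0.225), COL26A1 (0.152) and COL25A1 (0.138). With no filter, COL9A2 and COL3A1 were also called lower in OGD than in control, COL3A1 and COL6A3 higher in OGD/R than in OGD, and COL6A3 higher in OGD/R than in control. Their values are fractions of 1 FPKM. COL3A1 had 0.293, 0.475 and 0.438 FPKM in OGD/R, against 0.0639, 0.0467 and 0.0808 in OGD and 0.387, 0.134 and 0.253 in control libraries.

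The FPKM ratio of chains that share a trimer differed between groups without overlap in 8 of 9 comparisons. The share of other gene pairs without such overlap was not computed, so this count has no background beside it. The 9 comparisons reuse the same libraries and are not independent of each other. The ratios below were chosen after the values were seen, and a scaling factor of a library cancels within them. COL1A1 over COL1A2 was 1.04, 1.11 and 1.11 in OGD/R libraries (mean 1.09 ± 0.0435 SD), 0.490, 0.487 and 0.615 in OGD libraries (0.531 ± 0.0728) and 0.583, 0.4998 and 0.432 in control libraries (0.505 ± 0.0757). Both type I chains were thus near equal in FPKM in OGD/R, while OGD and control overlapped. COL4A1 over COL4A2 was 0.714, 0.717 and 0.680 in OGD/R (0.704 ± 0.0204), 1.81, 1.87 and 1.94 in OGD (1.87 ± 0.0664) and 0.785, 1.07 and 1.16 in control libraries (1.01 ± 0.196). The OGD ratios lay above every control and every OGD/R library, and OGD/R lay below control. COL6A1 over COL6A2 was 0.931, 0.877 and 0.881 in OGD/R (0.896 ± 0.0303), 0.799, 0.748 and 0.797 in OGD (0.781 ± 0.0287) and 0.520, 0.539 and 0.570 in control libraries (0.543 ± 0.0252), with no overlap between groups. In exact 2-sided permutation tests over libraries, 8 of the 9 comparisons of ratios gave p = 0.1, the smallest that 3 against 3 can reach (Benjamini-Hochberg adjusted 0.113 over the 9), and COL1A1 over COL1A2 in OGD against control gave 0.7. Leaving out either OGD replicate 3 or control replicate 3 turned the difference of COL1A1 over COL1A2 in OGD against control, with means of 0.489 and 0.531 in OGD against 0.505 and 0.542 in control libraries. The other 8 differences kept their direction when any one library of the 2 groups was left out.

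**Figure D3:**
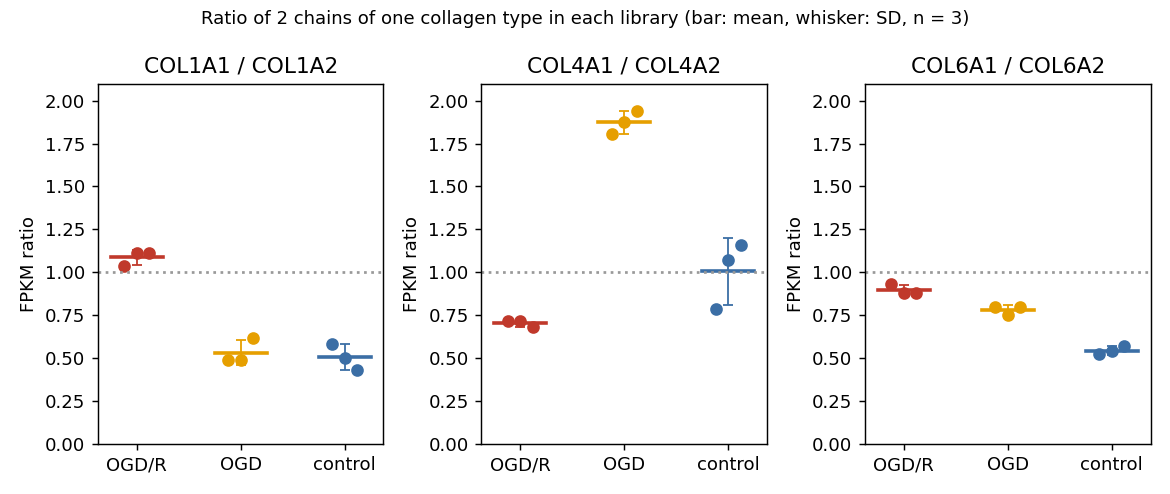
FPKM ratio of 2 chains of the same collagen type in each library, with group mean and SD (n = 3). COL4A1 over COL4A2 is highest in OGD (1.81 to 1.94), whereas COL1A1 over COL1A2 and COL6A1 over COL6A2 are highest in OGD/R.

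Genes that modify, export, trim, cross-link and degrade collagen were taken from 8 lists, whose counts stand beside these shares of all genes tested. These were 11.3% higher and 46.7% lower in OGD against control, 53.3% and 17.4% in OGD/R against OGD and 24.7% and 16.5% in OGD/R against control, with medians of -0.31, 0.39 and 0.07. Of 13 tested genes for prolyl and lysyl hydroxylation, 2 were higher and 7 lower in OGD against control (median -0.33), 10 higher and 1 lower in OGD/R against OGD (median 1.02) and 9 higher and 0 lower in OGD/R against control (median 0.55; 1 lower at an unadjusted limma p under 0.05). The share of this list lower in OGD against control (53.8%) and its median there were near those of all genes. P4HA1, a catalytic subunit of prolyl 4-hydroxylase, averaged 79.2 ± 2.24 FPKM in OGD/R, 73.9 ± 4.41 in OGD and 90.6 ± 4.49 in control cells (SD, n = 3 each). It was lower in OGD than in control (log2 fold change -0.29, limma adjusted p = 0.00896), a call lost with median-of-ratios scaling (0.09, adjusted p = 0.365), with the length trend removed (0.01, adjusted p = 0.901) and without OGD replicate 2 (-0.25, adjusted p = 0.0548). It gave 0.10 in OGD/R against OGD (limma adjusted p = 0.289), and it was called lower with median-of-ratios scaling (-0.39, adjusted p = 0.00125) and with the length trend removed (-0.29, adjusted p = 0.00381) but higher with a common sum (0.52, adjusted p = 0.000533). P4HA1 gave -0.19 in OGD/R against control (adjusted p = 0.0762), and it was called lower with median-of-ratios scaling (-0.30, adjusted p = 0.0107), with the length trend removed (-0.28, adjusted p = 0.00774) and without control replicate 3 (-0.23, adjusted p = 0.0496). P4HA2, the alternative catalytic subunit, averaged 35.2 ± 6.03, 13.9 ± 3.08 and 15.2 ± 0.985 FPKM in OGD/R, OGD and control cells, and was higher in OGD/R than in control by 1.15 (limma adjusted p = 0.000186). P4HB, the partner subunit and a disulfide isomerase, averaged 331 ± 42.0, 191 ± 12.9 and 169 ± 6.99 FPKM in the same order and was higher in OGD/R than in control by 0.95 (adjusted p = 4.36e-05). In OGD against control P4HB gave 0.17 (limma adjusted p = 0.164). It was called higher there with median-of-ratios scaling (0.55, adjusted p = 0.000838) and with the length trend removed (0.43, adjusted p = 0.0014).

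PLOD2, the lysyl hydroxylase of collagen telopeptides, averaged 243 ± 31.5 FPKM in OGD/R, 119 ± 13.8 in OGD and 217 ± 12.1 in control cells. It was lower in OGD than in control (-0.86, limma adjusted p = 8.83e-05) and higher in OGD/R than in OGD (1.02, adjusted p = 7.38e-06), while OGD/R and control overlapped (0.16, adjusted p = 0.282). PPIB, cyclophilin B, a proline isomerase in the prolyl 3-hydroxylation complex and not itself a hydroxylase, went the other way. It averaged 387 ± 6.27 FPKM in OGD/R, 1313 ± 40.8 in OGD and 377 ± 91.6 in control cells, a log2 fold change of 1.83 in OGD against control (limma adjusted p = 3.68e-06) and -1.76 in OGD/R against OGD (adjusted p = 1.06e-06). P3H2, a prolyl 3-hydroxylase, had the largest rise of this list in OGD/R against OGD (50.02 ± 5.82 against 11.9 ± 0.745 FPKM, log2 fold change 1.98, limma adjusted p = 5.74e-08), and PLOD3, another lysyl hydroxylase, the largest in OGD/R against control (35.6 ± 4.48 against 13.3 ± 3.60 FPKM, 1.38, adjusted p = 6.38e-05).

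Of 17 tested genes for glycosylation, chaperoning and export, 1 was higher and 6 lower in OGD against control (median -0.25), 9 higher and 2 lower in OGD/R against OGD (0.49) and 7 higher and 1 lower in OGD/R against control (0.24). The shares lower in OGD against control (35.3%) and higher in OGD/R against OGD (52.9%) were below and near those of all genes. SERPINH1 (HSP47), the collagen-specific chaperone, averaged 116 ± 9.97 FPKM in OGD/R, 50.5 ± 3.05 in OGD and 74.2 ± 5.58 in control cells. Its log2 fold changes were 1.19 in OGD/R against OGD (limma adjusted p = 6.94e-07) and 0.64 in OGD/R against control (adjusted p = 0.000284), and its -0.54 in OGD against control (adjusted p = 0.000542) was lost with median-of-ratios scaling (adjusted p = 0.148) and with the length trend removed (-0.18, adjusted p = 0.116). MIA3 (TANGO1), which loads bulky procollagen into export carriers, averaged 9.11 ± 2.81, 3.10 ± 0.447 and 3.73 ± 0.987 FPKM in OGD/R, OGD and control cells, with 1.27 in OGD/R against OGD (limma adjusted p = 0.000111) and 1.08 in OGD/R against control (adjusted p = 0.00121). SEC23A, a COPII coat subunit, fell most of this list in OGD against control (17.8 ± 1.90 against 41.3 ± 7.37 FPKM, -1.16, adjusted p = 3.48e-05). SEC13, another coat subunit, was the 1 higher (105 ± 4.18 against 82.5 ± 9.14 FPKM, 0.34, limma adjusted p = 0.00914; 0.485 with a common sum). TMEM38B, an ion channel of the endoplasmic reticulum, was lower in OGD/R (5.97 ± 0.466 FPKM) than in OGD (9.99 ± 0.310) and than in control cells (9.11 ± 0.969), with limma adjusted p = 0.000251 and 0.00308. The difference from OGD was lost with a common sum (adjusted p = 0.0903).

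Of the procollagen processing genes, 4 were tested, with 3 lower in OGD against control (median -0.68), 3 higher in OGD/R against OGD (1.30) and 3 higher in OGD/R against control (0.79). BMP1, the procollagen C-proteinase, averaged 22.7 ± 3.53 FPKM in OGD/R, 7.25 ± 0.137 in OGD and 12.2 ± 2.29 in control cells, with -0.67 in OGD against control (limma adjusted p = 0.00186), 1.51 in OGD/R against OGD (adjusted p = 2.15e-06) and 0.84 in OGD/R against control (adjusted p = 0.00066). FURIN, a proprotein convertase, averaged 11.8 ± 1.02, 2.02 ± 0.174 and 6.04 ± 1.62 FPKM in OGD/R, OGD and control cells and changed most of this list in each comparison (-1.20 in OGD against control with limma adjusted p = 0.000119, 2.08 in OGD/R against OGD with 6.51e-07, and 0.89 in OGD/R against control with 0.00121). Of 6 cross-linking genes tested, 4 were lower in OGD against control (median -0.41), 5 were higher in OGD/R against OGD (1.32) and 3 were higher in OGD/R against control (0.60). LOX, lysyl oxidase, averaged 24.96 ± 3.82 FPKM in OGD/R, 16.1 ± 1.62 in OGD and 20.1 ± 0.680 in control cells. LOX was higher in OGD/R than in OGD by 0.60 (limma adjusted p = 0.000596; 0.202 with median-of-ratios scaling and -0.06 with adjusted p = 0.544 with the length trend removed). Its -0.31 in OGD against control (adjusted p = 0.0371) turned to 0.05 with median-of-ratios scaling (adjusted p = 0.630) and to 0.11 with the length trend removed (adjusted p = 0.306), and gave -0.02 with quantile normalization (adjusted p = 0.881). It was also lost with no expression filter, with a replicate block, and without OGD replicate 2 or 3, OGD/R replicate 3 or control replicate 1 or 2 (adjusted p 0.0508 to 0.126).

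The LOX paralogue LOXL1 had the largest fall in OGD against control (24.8 ± 2.58 against 60.2 ± 7.80 FPKM, -1.24, limma adjusted p = 9.05e-06), and LOXL2, which acts on type IV collagen, the largest rise in OGD/R against control (109 ± 12.1 against 29.5 ± 4.28 FPKM, 1.86, adjusted p = 2.54e-06). TGM2, tissue transglutaminase, rose most of the cross-linking list in OGD/R against OGD (90.0 ± 9.08 against 25.7 ± 0.537 FPKM, 1.77, limma adjusted p = 1.29e-07).

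Of 7 collagen receptors tested, 0 were higher and 3 lower in OGD against control (median -0.20), and 5 were higher in OGD/R against OGD (0.65) and 5 in OGD/R against control (0.68). The share lower in OGD against control (42.9%) was near that of all genes. None was higher in OGD than in control at an unadjusted limma p under 0.05 either. MRC2, an uptake receptor for collagen fragments, rose most in OGD/R against OGD (7.59 ± 1.43 against 1.63 ± 0.0768 FPKM, 1.69, limma adjusted p = 2.72e-05). ITGA2, the integrin alpha 2 chain, rose most in OGD/R against control (6.85 ± 1.39 against 2.56 ± 2.11 FPKM, 1.40, adjusted p = 0.0196), a call that failed under a robust prior (adjusted p = 0.0761), without the filter (adjusted p = 0.0776) and without OGD/R replicate 2 (adjusted p = 0.0820). DDR1, a receptor tyrosine kinase for collagen, was lower in OGD than in control (4.46 ± 0.255 against 6.43 ± 1.97 FPKM, -0.41, limma adjusted p = 0.0461). The difference was -0.09 with median-of-ratios scaling (adjusted p = 0.595), -0.02 with quantile normalization (adjusted p = 0.896) and -0.0075 with the length trend removed (adjusted p = 0.968). The call was also lost with a replicate block (adjusted p = 0.0527), with no expression filter (0.0903), in a fit of these 2 groups alone (0.0822) and when any one library other than control replicate 3 was left out (adjusted p 0.0533 to 0.183).

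Of 9 collagen-binding matrix genes tested, 2 were higher and 3 lower in OGD against control (median -0.28), 7 were higher in OGD/R against OGD (1.01) and 7 in OGD/R against control (0.81). NID1, nidogen, which links type IV collagen to laminin, averaged 19.8 ± 3.10 FPKM in OGD/R, 3.86 ± 0.547 in OGD and 7.07 ± 0.446 in control cells, with 2.09 in OGD/R against OGD (limma adjusted p = 1.8e-07) and -0.74 in OGD against control (adjusted p = 0.00079). THBS1, thrombospondin 1, was higher in OGD (85.6 ± 10.8 FPKM) and in OGD/R (117 ± 19.8) than in control cells (41.1 ± 2.53), by 1.04 and 1.47 (limma adjusted p = 5.96e-05 and 1.3e-05). Of 12 degradation genes tested, 3 were higher and 5 lower in OGD against control (median -0.21), 9 higher and 2 lower in OGD/R against OGD (0.999), and 9 higher and 0 lower in OGD/R against control (0.63; also 0 lower at an unadjusted limma p under 0.05). MMP14, a membrane-bound collagenase, rose most in OGD/R against OGD (42.4 ± 7.004 against 10.9 ± 1.44 FPKM, 1.86, limma adjusted p = 2.32e-05). TIMP3, a protease inhibitor and not a protease, rose most in OGD/R against control (70.5 ± 6.16 against 28.1 ± 0.940 FPKM, 1.30, adjusted p = 3.07e-06).

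CTSL, a lysosomal cathepsin, moved against most of the degradation list, with 81.5 ± 3.45 FPKM in OGD against 50.3 ± 9.997 in control cells (0.70, limma adjusted p = 0.000612), and it was lower in OGD/R (56.8 ± 2.48 FPKM) than in OGD (log2 fold change -0.51, adjusted p = 0.00262; 0.412 with a common sum). TIMP2, another inhibitor, fell most in OGD against control (20.4 ± 0.612 against 40.2 ± 5.27 FPKM, -0.93, limma adjusted p = 3.81e-05).

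Genes that supply proline and glycine, the residues most frequent in collagen, moved in both directions. Of 13 tested, 3 were higher and 5 lower in OGD against control (median -0.14), 5 higher and 4 lower in OGD/R against OGD (median 0.09), and 1 higher and 6 lower in OGD/R against control (median -0.09). PSAT1, of serine synthesis, averaged 57.9 ± 5.61 FPKM in OGD/R against 153 ± 1.91 in OGD (-1.39, limma adjusted p = 1.31e-07), and PSPH, the last enzyme of that route, 12.2 ± 0.598 in OGD/R against 26.4 ± 6.83 in control cells (-1.02, adjusted p = 0.000435). SHMT2, which makes glycine in mitochondria, averaged 173 ± 4.88 FPKM in OGD against 101 ± 8.95 in control cells (0.77, limma adjusted p = 5.18e-05). ALDH18A1, which makes the precursor of proline, was the 1 gene higher in OGD/R than in control (22.9 ± 1.85 against 14.5 ± 1.18 FPKM, 0.63, limma adjusted p = 0.00052). The counts of genes lower in OGD against control depend on scaling in several lists. With median-of-ratios scaling they were 3 for hydroxylation, 1 for glycosylation, chaperoning and export, 2 for cross-linking, 1 for receptors and 3 for degradation. Of all genes tested, 22.4% were lower under that scaling.

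**Figure D4:**
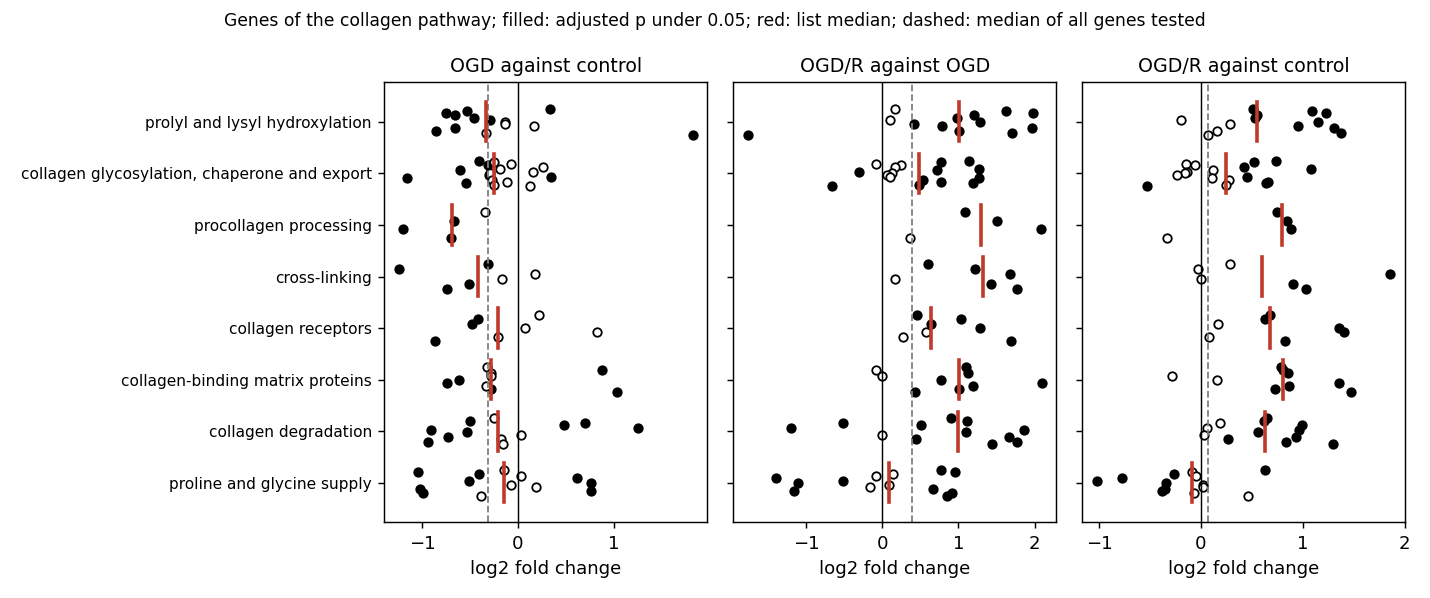
Log2 fold changes of the tested genes in the 8 lists, 1 point per gene, filled where the adjusted p is under 0.05, with the list median in red and the median of all genes dashed. In OGD/R against OGD the medians of hydroxylation (1.02), processing (1.30), cross-linking (1.32), binding matrix (1.01) and degradation (0.999) genes lie right of the all-gene median (0.39), and that of proline and glycine supply (0.09) lies left of it.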

How the data were processed

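Per the labels, total RNA of 9 libraries was prepared with a SMARTer mRNA-seq kit. The authors deposited 1 FPKM value per gene and library, on build GRCh38 per the submitters' processing notes. Not given in the sources used here are the aligner, the counting tool, the annotation and the use of strand. The deposited FPKM do not sum to a common total, and depth is unknown. Groups came from the sample titles, and no pair of libraries held identical values. FPKM were tested as log2(FPKM + 1), which understates fold changes of low genes, with no further scaling. The 10818 genes with 1 FPKM or more in 3 or more of 9 libraries entered 1 limma 3.58.1 fit in R 4.3.3 (3 groups, eBayes with trend, 6 residual degrees of freedom, 2-sided, Benjamini-Hochberg over all genes, threshold 0.05). Every adjusted p is limma's. The procedure was tested on simulated data.

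Members, lists and ratios were chosen with earlier results of these data known. All tested chains are named. From each pathway list the text names the called genes with the largest rise and fall per comparison, where the higher mean was at least 5 FPKM, and 8 fixed genes (P4HA1, P4HA2, P4HB, PLOD2, SERPINH1, LOX, MIA3, BMP1). One gene that this rule selects is not reported here. Chain coordinates and promoter sequences are from RefSeq for GRCh38.p14, and transcript lengths and overlaps from GENCODE. Alternatives were pseudocounts of 0.1 and 0.5, no filter or 5 FPKM, median-of-ratios, common-sum and quantile scaling, removal of the length trend, a robust prior, a replicate block, a fit of each pair of groups and leaving out each library. The plots were made in Python 3.11.15 with matplotlib 3.10.9.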

Additional observations from a re-analysis of the deposited data

How the results depend on the processing

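Under the 20 alternatives, 970 of 1047 fold changes of single chains kept their direction and their side of the threshold. With the direction kept, 36 no longer passed and 14 newly passed, and 27 turned direction. Among those that turned, the calls of COL12A1 and COL16A1 in OGD/R against OGD were also lost, with the length trend removed. The counts changed as follows. With a 5 FPKM filter, which left 10 chains, 6 were lower in OGD against control and 10 higher in OGD/R against OGD. Of all genes at that filter, 48.8% were lower in the first comparison and 51.9% higher in the second. Chains called higher in OGD against control numbered 0 with a common sum, 2 with quantile normalization and 3 with the length trend removed. The last also gave 6 lower in that comparison and 11 higher in OGD/R against OGD. Quantile normalization gave 8 lower in OGD against control, where 20% of all genes were higher and 22.4% lower. It gave 13 higher in OGD/R against OGD, where 31.4% of all genes were higher and 31.3% lower. In OGD/R against control, 1 was lower with quantile normalization (COL9A3) and 1 with the length trend removed (COL4A5). Leaving out 1 library gave 1 higher and 10 to 12 lower in OGD against control, 15 to 17 higher in OGD/R against OGD and 10 to 15 higher in OGD/R against control. When the library left out was of OGD/R, COL16A1 failed the filter and 17 chains were tested. Deviations of same-numbered libraries from their group means had correlations of -0.20 to 0.15. With 3 libraries per group, these cannot tell whether the numbers pair the libraries. A replicate block gave 1 and 10, 17, and 12 calls in these comparisons, with COL8A1 lost in the last (adjusted p = 0.0533). Leaving out 1 library gave -0.036 to 0.18 for the mean log2 ratio of COL1A1 over COL1A2 in OGD against control. The cause of these changes was not tested.

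Values that turned direction in OGD against control were, with median-of-ratios scaling, COL12A1 0.13, COL27A1 0.030, COL4A2 0.0086 and COL6A1 0.058, with a common sum COL16A1 -0.14 and COL7A1 -0.11, with quantile normalization COL12A1 0.14, COL27A1 0.12 and COL4A2 0.024, and with the length trend removed COL12A1 0.15, COL27A1 0.31, COL4A2 0.079 and COL6A1 0.097. In OGD/R against OGD, COL13A1 gave -0.26, -0.44 and -0.33 with median-of-ratios, quantile and length corrections, and COL12A1 -0.12 and COL16A1 -0.061 with the last. In OGD/R against control, COL4A5 gave 0.063 with a common sum. Leaving out 1 library gave, in OGD against control, -0.086 to 0.52 for COL13A1, -0.020 to 0.061 for COL16A1, -0.23 to 0.11 for COL27A1, -0.039 to 0.18 for COL7A1 and -0.25 to 0.043 for P4HA2, and, in OGD/R against control, -0.18 to 0.11 for COL4A5. Of named pathway genes, in OGD against control P4HA2 turned to 0.22, 0.18 and 0.22 and MIA3 to 0.11, 0.19 and 0.22 (median-of-ratios, quantile, length), P4HA1 to 0.088 and 0.012 and LOX to 0.053 and 0.11 (median-of-ratios, length) and P4HB to -0.11 (common sum). In OGD/R against OGD, P4HA1 turned to -0.39 and -0.29 (median-of-ratios, length) and LOX to -0.061 (length), and in OGD/R against control PLOD2 to -0.022 (length).

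Unknown depth limits statements on the 20 chains under the filter.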
